A study of Rattus norvegicus with 24 samples.

Results

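RNA from whole dorsal root ganglia (DRG) below the lesion was compared between rats with a complete transection of the spinal cord (TX SCI) and rats with a contusion (CONT SCI), neither of which was exercised. These groups hold 10 of the 24 samples in the series, 4 TX SCI and 6 CONT SCI, and were taken by the group and replicate in the column names of the count matrix. A further 4 samples from rats without injury (No SCI) entered the same fit and are given beside the results. Contused rats that were exercised, 5 by swimming and 5 by shallow water walking, were collected 13.5 weeks after injury. Their values are given for 4 genes only, and they entered an alternative fit of all 24 samples. All were female Sprague Dawley rats, 8 to 9 weeks old on arrival, and each sample was 1 animal, with the T11 to L4 ganglia of both sides pooled. The injured rats had a laminectomy at T2. In TX SCI the cord was then cut through with a scalpel, and in CONT SCI it received an impact of 25 g-cm from the NYU Impactor. All rats, No SCI included, were kept in small cages that restrict locomotion. DRG were collected 8.5 weeks after injury in TX SCI and 11.5 weeks after injury in CONT SCI, with No SCI labelled 11.5 weeks as well. Injury type and time of collection therefore changed together and cannot be told apart in any comparison of TX SCI with CONT SCI or No SCI below. The exercised rats also differ from every other group in time of collection. The labels used here give no cohort, library or sequencing batch, so a batch that follows the groups cannot be told apart from them either.

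The DRG hold the cell bodies of the sensory neurons that carry signals from skin, muscle and viscera into the spinal cord, together with satellite glia, Schwann cells, fibroblasts, vessels and resident macrophages. The neurons send a branch to the periphery and another to the cord, and ganglia far below a thoracic lesion are mostly not cut by it. A complete transection removes all descending input to the cord segments that these neurons enter, whereas a contusion spares part of it. The study set these injuries side by side to examine the severity of the lesion, a question that the comparison cannot separate from the time of collection. In whole ganglia, fewer cells of a type and less RNA per cell cannot be told apart.

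The rows of the matrix carry Ensembl identifiers and no gene symbols, and the annotation at hand pairs none of them with a symbol. Genes are therefore given by identifier, their known functions are not described, and marker genes of DRG cell types were not analysed here, so the labelled tissue was not checked against them. The DRG of TX SCI and CONT SCI rats differed at a large share of genes, mostly by small amounts. Of 15126 genes tested, 6111 (40.4%) passed the threshold (edgeR quasi-likelihood F test, Benjamini-Hochberg adjusted p under 0.05 over all genes tested), 3000 higher in TX SCI (19.8%) and 3111 lower (20.6%). The balance of directions turned with the scaling, with 3411 genes higher and 2836 lower under upper-quartile in place of TMM scaling. The median log2 fold change of TX SCI over CONT SCI was 0.37 among the genes called higher and -0.41 among those called lower. For 4043 of the 6111 genes (66.2%) the change was under 0.5 on the log2 scale. A change of at least 1 was found for 554 of the called genes (3.66% of those tested), 226 higher and 328 lower. At least 2 on the log2 scale was reached by 56 genes that rose and 102 that fell. When a change beyond 1.5-fold was itself tested (edgeR's glmTreat, chosen after the data were seen), 428 genes passed at an adjusted p under 0.05, 139 higher and 289 lower.

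**Figure D1:**
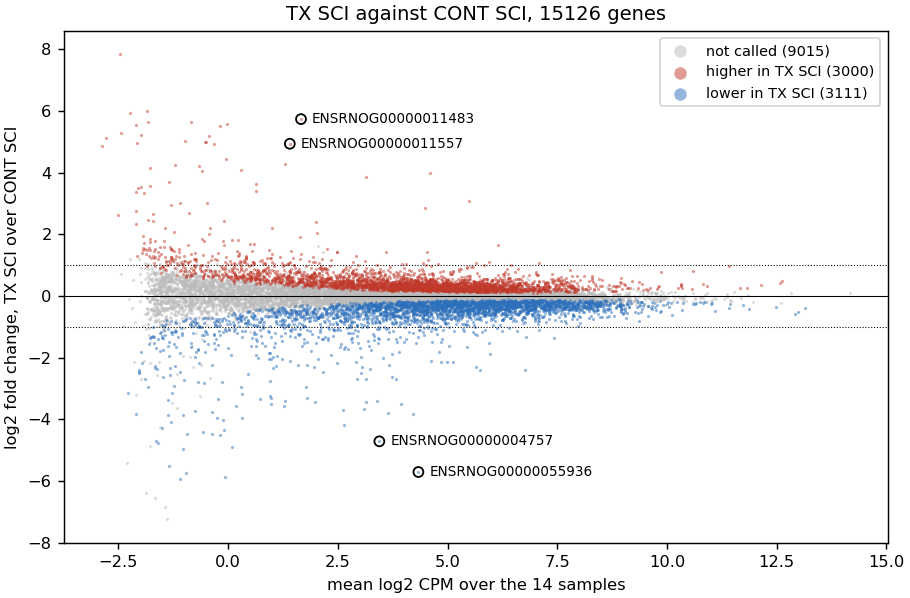
Each point is 1 of the 15126 genes tested, with its mean log2 CPM (read counts scaled to library size) over the 14 samples on the x axis and its log2 fold change of TX SCI over CONT SCI on the y axis. Coloured points had an adjusted p under 0.05 (3000 higher, 3111 lower), dotted lines mark a change of 1 on the log2 scale, and the 4 genes described by identifier are ringed.

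The separation was visible in single animals for part of these genes. For 3848 of the 15126 genes (25.4%) the 4 TX SCI rats did not overlap with the 6 CONT SCI rats in CPM. All 4 TX SCI rats lay above all 6 CONT SCI rats for 1793 genes (11.9%) and below them for 2055 (13.6%). Of the 6111 called genes, 3732 did not overlap and 2379 did. The share without overlap was 84.1% among the 554 genes with a change of at least 1 (log2) and 53.3% among the 4043 that changed by under 0.5. These counts describe the same 10 samples that gave the calls and are no further evidence for them.

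Direction followed abundance. Among the 642 genes with a mean log2 CPM of 8 or more, the most abundant class, 234 were called lower in TX SCI (36.4%) and 71 higher (11.1%), and the median log2 fold change of all 642 was -0.12. In the next class, from 6 to 8, 784 of 2687 genes were called lower (29.2%) and 452 higher (16.8%). Between 4 and 6 the directions were near balance, with 1116 of 4838 genes higher and 1056 lower. The less abundant classes leaned the other way. From 2 to 4, 754 of 3280 genes were called higher and 589 lower, and from 0 to 2, 398 of 2045 were higher and 292 lower. Under 0, 209 of 1634 genes were called higher and 156 lower, and only 22.3% of this class was called at all, against 47.5% of the most abundant class. The median standard error was 0.31 on the log2 scale in the lowest class and 0.07 in the highest, so a change of a given size was harder to detect in the scarce genes. With upper-quartile in place of TMM scaling, the most abundant class had 214 genes lower and 81 higher, and with all libraries thinned to 1 depth it had 243 lower and 67 higher. With TX SCI and CONT SCI weighted equally in the abundance, 229 of 639 genes at 8 or more were lower and 76 higher, and from 0 to 2, 296 were lower and 398 higher. Under 0, the lean towards rises was then slight, with 183 higher and 176 lower.

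**Figure D2:**
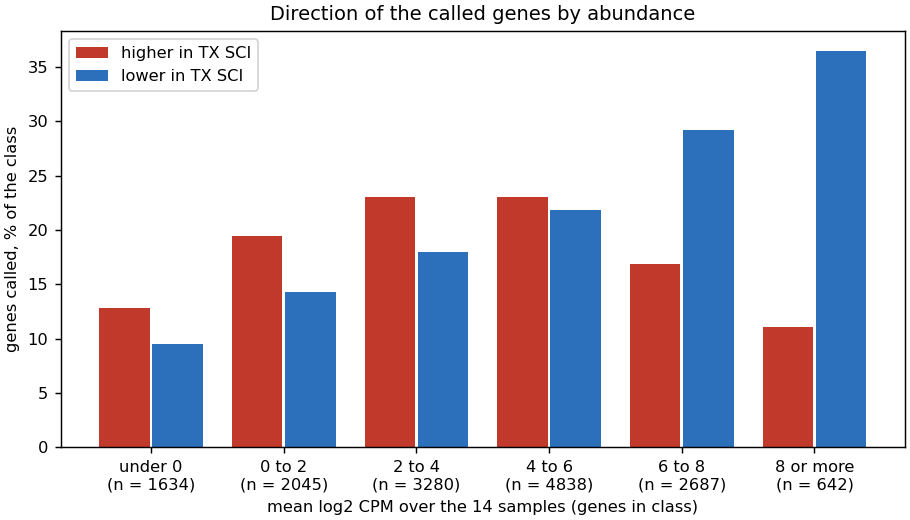
Bars give the share of genes called higher (red) or lower (blue) in TX SCI than in CONT SCI, as a percentage of each abundance class, with classes set by the mean log2 CPM over the 14 samples. In the class of 8 or more, 36.4% of genes were lower and 11.1% higher, whereas in the class from 0 to 2, 14.3% were lower and 19.5% higher.

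Changes of at least 1 on the log2 scale lay mainly in scarce genes, where the estimates were least precise. In the class under 0 by the mean over the 14 samples, the median standard error was 0.31. The called genes of that class had a median change of 1.24 in size. Small changes were hard to detect there, and the sizes of called changes may be overstated. The mean over the 14 samples places a large fall, which is high in 10 of them, in a higher class than a rise of the same size, which is high in 4. These changes were therefore sorted by the mean of the TX SCI and CONT SCI levels with equal weight (log2 CPM), a choice made after the data were seen. No gene at 8 or more then changed by at least 1, and from 6 to 8 there were 5 rises and 7 falls. In the class under 0, 114 genes rose and 122 fell, and from 0 to 2, 76 rose and 83 fell. From 2 to 4 there were 20 rises and 78 falls, and from 4 to 6 there were 11 rises and 38 falls. Accordingly, the genes that changed by at least 1 took up little of each library. The 226 that rose held between 0.200% and 0.293% of the counts in the 4 TX SCI rats and between 0.0595% and 0.0814% in the 6 CONT SCI rats. The 328 that fell held 0.153% to 0.171% in TX SCI and 0.391% to 0.503% in CONT SCI. By contrast, the 3111 genes called lower, of any size, held 26.1% ± 0.463 of the counts in TX SCI (SD, n = 4) and 32.4% ± 1.18 in CONT SCI (SD, n = 6). The 3000 genes called higher held 20.2% ± 0.488 in TX SCI (SD, n = 4) and 15.2% ± 0.897 in CONT SCI (SD, n = 6). In No SCI these shares were 31.5% ± 0.981 for the genes called lower and 15.5% ± 0.862 for those called higher (SD, n = 4). The genes were chosen by this contrast, so the shares describe its size in reads and carry no test.

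The 4 genes given by identifier are the largest rises and the largest falls whose log2 CPM averaged 1 or more and whose TX SCI and CONT SCI rats did not overlap. Both rises met the abundance limit through their TX SCI values. Since the 4 genes were chosen by their change, call and separation in this contrast, their values here describe its largest changes, and their p-values and gaps between groups are no separate evidence. In TX SCI, ENSRNOG00000011483 was measured at 22.5, 63.0, 31.0 and 86.8 CPM in replicates 1 to 4. In CONT SCI it lay between 0.403 and 2.16 CPM, with a median of 0.846 (n = 6). The lowest TX SCI rat was thus 10.4 times the highest CONT SCI rat, and the TX SCI rats differed among themselves by up to 3.87 times. TX SCI differed from CONT SCI by 5.74 ± 0.47 (log2, standard error; edgeR adjusted p = 8.52e-07). In No SCI this gene lay at 1.30, 1.19, 3.30 and 0.889 CPM, and the difference of CONT SCI from No SCI, -0.84 on the log2 scale with a standard error of 0.62, did not pass the test (edgeR adjusted p = 0.516).

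ENSRNOG00000011557 stood at 12.0, 37.0, 20.9 and 43.2 CPM in TX SCI replicates 1 to 4. In CONT SCI it lay between 0.430 and 1.97 CPM, with a median of 0.869 (n = 6). The lowest TX SCI rat was at 6.10 times the highest CONT SCI rat. TX SCI differed from CONT SCI by 4.94 ± 0.43 (log2, standard error; edgeR adjusted p = 1.54e-06). No SCI rats had 1.13, 1.59, 2.89 and 0.650 CPM. The 4 TX SCI rats took the same order in both genes, with replicate 4 highest and replicate 1 lowest. CONT SCI replicate 3 was the highest CONT SCI rat in both, and No SCI replicate 3 the highest No SCI rat in both. The CPM ratio of ENSRNOG00000011483 to ENSRNOG00000011557 ran from 1.48 to 2.01 in TX SCI, from 0.875 to 1.23 in CONT SCI and from 0.745 to 1.37 in No SCI.

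ENSRNOG00000055936 was counted at 0.817, 1.40, 1.20 and 1.42 CPM in TX SCI replicates 1 to 4. CONT SCI rats had 48.7 to 85.4 CPM with a median of 58.9 (n = 6), the lowest of them 34.3 times the highest TX SCI rat. TX SCI differed from CONT SCI by -5.71 ± 0.22 (log2, standard error; edgeR adjusted p = 2.32e-11). No SCI lay at 55.6, 52.5, 69.7 and 59.5 CPM, within the range of CONT SCI, and CONT SCI differed from No SCI by 0.12 ± 0.14 (log2, standard error; edgeR adjusted p = 0.718).

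ENSRNOG00000004757 had 0.914, 1.16, 0.921 and 1.46 CPM in TX SCI replicates 1 to 4, from 19 to 41 reads per library. In CONT SCI it lay between 21.8 and 42.2 CPM, with a median of 28.3 (n = 6), and the lowest CONT SCI rat was 15.0 times the highest TX SCI rat. TX SCI differed from CONT SCI by -4.71 ± 0.21 (log2, standard error; edgeR adjusted p = 1.51e-10). No SCI had 23.7, 24.5, 22.0 and 26.6 CPM. From gene counts alone, it could not be examined whether any of these genes shared reads with a close copy or an overlapping gene.

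The exercised contusion groups, collected at 13.5 weeks, were set beside these 4 genes as values only, scaled over all 24 samples. The values of TX SCI, CONT SCI and No SCI were scaled over their 14 samples, so close ranks against the exercised rats could change with the scaling. Both falls were also low in the exercised contused rats. ENSRNOG00000055936 lay between 0.581 and 0.972 CPM after swimming and between 0.629 and 1.09 CPM after shallow water walking (n = 5 each). ENSRNOG00000004757 lay between 0.426 and 0.994 CPM after swimming and between 0.141 and 0.984 CPM after shallow water walking. For both falls, the rats collected at 11.5 weeks were high and those collected at 8.5 or 13.5 weeks were low, and contused rats were found on either side. The part that the time of collection plays in this was not tested. Both rises were highest in TX SCI, with the exercised groups between it and the others in their means. ENSRNOG00000011483 lay between 1.23 and 11.3 CPM after swimming and between 1.43 and 17.2 CPM after shallow water walking, with means of 7.25 and 7.65 CPM against 50.8 in TX SCI, 0.956 in CONT SCI and 1.67 in No SCI. For this gene 8 of 10 exercised rats lay above every CONT SCI and No SCI rat, and all 10 lay below every TX SCI rat. The lowest of the 8, shallow water walking replicate 2 at 3.38 CPM, was close to the highest No SCI rat at 3.30 CPM. ENSRNOG00000011557 reached 7.89 CPM after swimming and 11.4 CPM after shallow water walking, against 12.0 CPM in the lowest TX SCI rat, and 5 of 10 exercised rats lay above every CONT SCI and No SCI rat.

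**Figure D3:**
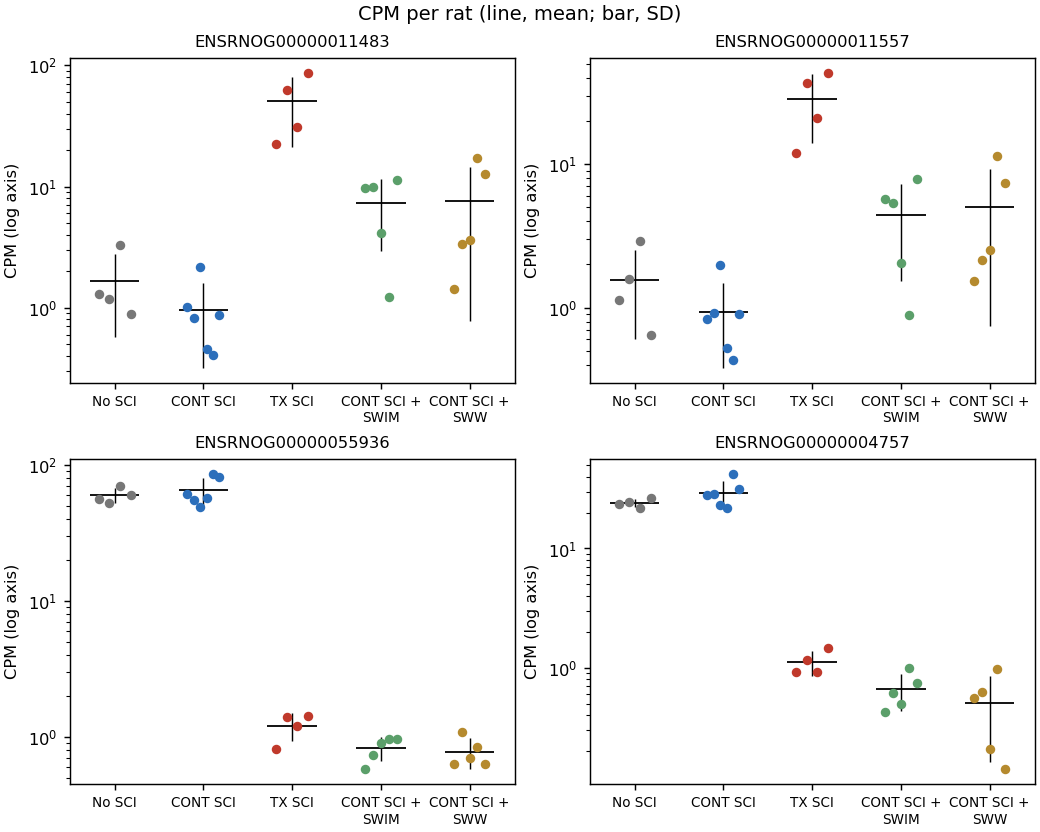
CPM of the 4 genes in each rat (points, log axis) by group, with the mean (line) and SD (bar). Exercised rats were scaled over all 24 samples and the others over their 14 samples. In the upper panels the 4 TX SCI rats lie above all others, at 22.5 CPM or more for ENSRNOG00000011483. In the lower panels TX SCI and both exercised groups lie at 1.46 CPM or below, and No SCI and CONT SCI at 21.8 CPM or above.

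Of all 24613 genes in the matrix, tested or not, 4997 had no count in either group. Of the 24613, 22 were counted in all 4 TX SCI rats and in no CONT SCI rat, with at most 52 reads in the 4 libraries together. A further 9 genes were counted in all 6 CONT SCI rats and in no TX SCI rat, with at most 119 reads in the 6 libraries. The patterns ask for different numbers of rats with and without a read, so their counts cannot be set against each other. At these low totals, the data show how many reads were found and not that a transcript was absent.

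Set beside the other contrasts of the same fit, which share samples with this one, TX SCI against CONT SCI gave 6111 calls, TX SCI against No SCI 5258 (34.8% of the genes tested) and CONT SCI against No SCI 1570 (10.4%). The median size of the log2 change over all 15126 genes was 0.21, 0.21 and 0.10 in this order, and its 90th percentile was 0.65, 0.68 and 0.41. The median standard errors were near each other, at 0.09, 0.10 and 0.09.

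Total counts lay between 20040086 and 38730307 in TX SCI and between 30462475 and 38370849 in CONT SCI. After all libraries of the 3 groups were thinned to 20040086 counts, 17150 to 17316 genes had a count in TX SCI and 16965 to 17231 in CONT SCI. The means differed by 146 genes, which did not pass the test (two-sided exact permutation test, p = 0.0762, adjusted p = 0.143 over 3 library measures). The most counted gene took 1.86% to 2.17% of the counts in TX SCI and 1.52% to 2.61% in CONT SCI (two-sided exact permutation test, p = 0.41, adjusted 0.41). The number of genes that together held 50% of the counts was 770 to 818 in TX SCI and 748 to 805 in CONT SCI (two-sided exact permutation test, p = 0.0952, adjusted 0.143). CONT SCI replicate 4 stood apart, with the 2.61% just given and a mean correlation of 0.989 with the other CONT SCI rats, against 0.991 to 0.992 for the others. In TX SCI, replicate 1 had the lowest mean correlation with its group, 0.990 against 0.991 to 0.992, and the fewest counts, 20040086. Without CONT SCI replicate 4, 6989 genes were called, 3448 higher and 3541 lower. Without TX SCI replicate 4, which had the highest values of both rises, 5109 genes were called. With each of the 14 samples left out in turn, 4254 of the 6111 genes (69.6%) passed in the same direction in every fit, and so did 496 of the 554 genes that changed by at least 1. The 24 alternative fits used other scalings, filters, tools and samples, a block by replicate number, and libraries thinned to equal depth. Over all of them, 3895 of the 6111 (63.7%) passed in the same direction, and 365 of the 554. The block by replicate number kept the fewest of the 6111 in a single fit, 4852 (79.4%). A filter of 1 CPM in 4 samples, under which fewer scarce genes are tested, by itself retained 377 of the 554.

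**Figure D4:**
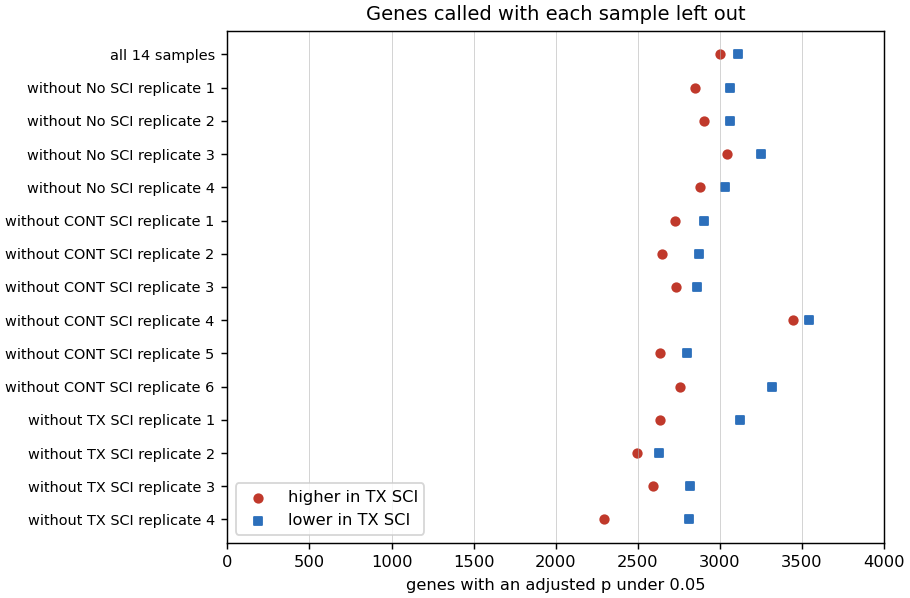
Number of genes with an adjusted p under 0.05 that were higher (red circles) or lower (blue squares) in TX SCI than in CONT SCI, with all 14 samples and with each sample left out. Genes called higher ranged from 2297 without TX SCI replicate 4 to 3448 without CONT SCI replicate 4, and genes called lower from 2627 without TX SCI replicate 2 to 3541 without CONT SCI replicate 4.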

How the data were processed

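Per the labels and the study's methods, the authors checked single-end poly-A reads with FastQC 0.10.1, aligned them to rn6 with STAR, and counted them per Ensembl gene with HTSeq 0.10.0, using strand and leaving out mitochondrial genes. The deposited matrix holds these whole-number counts for 24613 genes, not normalized. Multi-mapped reads are lost from such counts.

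The 14 samples of TX SCI, CONT SCI and No SCI were fitted together in edgeR 4.0.16 (R 4.3.3): filterByExpr (minimum count 10, minimum total 15), TMM scaling, robust glmQLFit and glmQLFTest, with Benjamini-Hochberg adjustment and a threshold of 0.05. Standard errors were obtained from each gene's change and F statistic, as the change over the square root of F. DESeq2 1.42.0 was an alternative. Permutation tests used scipy 1.17.1.

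The comparison and the lists were chosen with earlier results of these data known. The annotation (GRCr8, 47357 genes) holds 0 Ensembl identifiers, so the 30 planned gene lists and the rule for named genes by symbol were not used here. That rule's alternative named the 2 largest rises and 2 largest falls by identifier, among called genes whose log2 CPM averaged 1 or more and whose groups did not overlap. The sample names share replicate numbers, but the animals differ. The tests of library measures were added after the data were seen.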

Additional observations from a re-analysis of the deposited data

Results flagged for a closer look

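A sample far from the rest of its group was looked for in 53 groups of values, by its gap to the nearest value over the range (Dixon's criterion). It was found 6 times, where about 2.65 would be expected for normally distributed values. CPM values need not be normal, and several of the 6 fell on the same libraries, so 6 against 2.65 is not taken as an excess. CONT SCI replicate 4 stood apart in the share of its most counted gene, 2.61% against 1.52% to 1.74%, and in its mean correlation with its group, 0.989 against 0.991 to 0.992. CONT SCI replicate 3 stood apart in both rises, with 2.16 CPM of ENSRNOG00000011483 against 0.403 to 1.02, and 1.97 CPM of ENSRNOG00000011557 against 0.430 to 0.916. No SCI replicate 3 had 3.30 CPM of ENSRNOG00000011483 against 0.889 to 1.30, and 16.8% of its counts in the genes called higher in TX SCI, against 15.1% to 15.2% in the other No SCI rats.

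The differences of TX SCI and of CONT SCI from No SCI were not the same, which is the comparison of TX SCI with CONT SCI itself: 6111 genes were called (edgeR, adjusted p under 0.05). Between these differences, the log2 values of TX SCI minus CONT SCI were 5.74 for ENSRNOG00000011483, 4.94 for ENSRNOG00000011557, -5.71 for ENSRNOG00000055936 and -4.71 for ENSRNOG00000004757.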

How the results depend on the processing

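Fewer genes passed a stricter threshold, 3973 at an adjusted p under 0.01, of which 1844 were higher. Testing a change beyond 1.5-fold, chosen after the data were seen, left 428 genes, 139 higher and 289 lower. The counts of genes called, called higher, called lower and changed by at least 1 stayed within 1.5 times their values under the other scalings, filters, tools and samples in the fit, and so did the count without overlap (3815) under RLE scaling, its only alternative. The split between higher and lower turned under upper-quartile scaling (3411 and 2836), and with 1 CPM in 4 samples as the filter it was 2653 and 3232. The remaining counts of the report were not recomputed, apart from those by abundance. With each sample left out in turn, 5109 to 6989 genes were called, 2297 to 3448 of them higher and 2627 to 3541 lower, and the called genes with a change of at least 1 (log2) numbered 507 to 608. Blocking by replicate number (replicate block) gave 5041 called genes. Same-numbered TX SCI and CONT SCI deviations correlated with r from -0.01 to 0.20, and 1 of the 4 TX SCI rats correlated best with its own number, so the numbers were not taken to pair animals. The 4 genes kept their direction and an adjusted p of at most 0.000277 in all 24 alternative fits of each (edgeR's quasi-likelihood test or DESeq2). Without TX SCI replicate 3, CONT SCI replicate 4 and No SCI replicate 3 together, 6690 genes were called, and after thinning to equal depth 5707. The alternatives planned for gene lists were not run, since no list could be matched. Standard errors were largest in the scarce genes, and the part of depth in this was not tested.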
